A study of Mus musculus with 4 samples.

Results

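Class switch recombination replaces the constant region of the IgM heavy chain by that of another antibody class. The enzyme AID deaminates cytosines in the transcribed switch regions that lie before the constant region genes. Repair of the resulting uracils leaves DNA breaks, which are signalled by the ATM kinase and its chromatin adaptors and rejoined mainly by non-homologous end joining. The genes described here are 32 cofactors of these steps, chosen by name for their known roles, although earlier results of these data were known. They form 3 role groups: 12 cofactors of AID and its targeting, 12 genes of break signalling and end protection, and 8 genes of end joining. Of the 32, 28 had at least 1 transcript cluster (the array's unit of measurement, a set of probes for 1 gene) that the platform's gene table pairs with that symbol alone. These 28 genes had 33 clusters, out of 19938 genes and 21789 such clusters on the array. Supt4a, Prkaca and Rnf8 appear in the table only on clusters shared with other genes and are not described. Dclre1c, which encodes the end-processing nuclease Artemis, was not analysed here. H2afx is listed under its current symbol, H2ax.

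The data are 4 whole-transcript Affymetrix arrays of CH12.F3, a mouse B cell lymphoma line widely used because it switches to IgA in culture. The 2 control arrays hold RNA of CH12.F3 cells for which the labels give no modified allele. The 2 Mbd4 KO arrays hold RNA of CH12.F3 cells without Mbd4, a repair glycosylase with a methyl-CpG binding domain that cuts out thymine or uracil where these face guanine. The series' design text calls the samples of a group independent, and the labels do not say how the knockout was made, whether it is 1 clone or whether cultures were separate. Every culture was in RPMI with 6% FCS and received the IgA inducers CD40L (25% of the volume), TGFb (0.2 ng/ml) and IL4 (5 ng/ml) for 24 hours. Cells without inducers are not among the arrays, so the comparison is between activated cells only. P-values measure only how far these arrays spread, which may be technical variation. The arrays read whole cultures, so a lower level in every cell and fewer cells with the usual level cannot be told apart.

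The arrays were alike in overall signal, with medians of 6.944 to 6.978 (log2). Mbd4 itself read 8.74 and 8.77 on the control arrays and 6.47 and 6.49 on the Mbd4 KO arrays (log2 level). Mbd4 thus fell by 2.28 (log2; SE 0.0657; limma adjusted p = 0.0002), which ranks the arrays as labelled, although the position of its probes relative to the deletion is unknown here. The listed B cell markers, 10 of 10, lay above 9.433, the upper quartile of tested clusters. Of 7 T cell and 7 myeloid markers, 6 each had a mean over the arrays under the median of tested clusters, 7.2, as had 2 of 2 erythroid markers. Cd5, a T cell marker that some B cells carry, was the T cell exception, and Csf1r (7.37) the myeloid one. Adgre1, the macrophage marker F4/80, was the one marker of these lists that was called. It read 7.69 and 7.68 on the control arrays, above that median, and 6.58 and 6.67 on the Mbd4 KO arrays, a difference of -1.06 (log2; limma adjusted p = 0.00311). Its part in the results was not tested.

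No gene of the 28 passed the threshold of 0.05 for limma's p-value adjusted by Benjamini-Hochberg over all 21789 clusters, under which 302 clusters, or 1.39%, were called. The smallest adjusted p among the 33 clusters was 0.0869. The 302 called clusters differed by at least 0.43 (log2, 1.34-fold), a size that none of the 28 genes reached, since the largest difference was 0.35. At an unadjusted p under 0.05 there were 7 of the 33 clusters, 4 higher and 3 lower in Mbd4 KO cells, which is 21.2% against 13.8% of all clusters tested (7.4% higher and 6.43% lower). Taking for each gene the cluster with the highest mean, the median difference over the 28 genes was 0.03 (log2, Mbd4 KO minus control), and 0.02 over all 19938 genes. The differences ran from -0.30 for Rnf168 to 0.35 for Atm, with 17 genes above 0 and 11 below.

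Control and Mbd4 KO arrays did not overlap in 18 of the 33 clusters (54.5%), 12 higher and 6 lower, against 45.0% of all clusters tested (26.7% higher and 18.3% lower). Counted by gene it was 16 of 28 (57.1%). Of all genes at or above the median level, where 24 of the 28 lie, 54.4% did not overlap, so separation of the groups was about as common here as among other genes of that brightness. For 21 of the 28 genes the 95% interval of the difference included 0, and the bounds of these intervals reached -0.30 and 0.29 at the most, so larger changes lie outside the intervals.

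**Figure D1:**
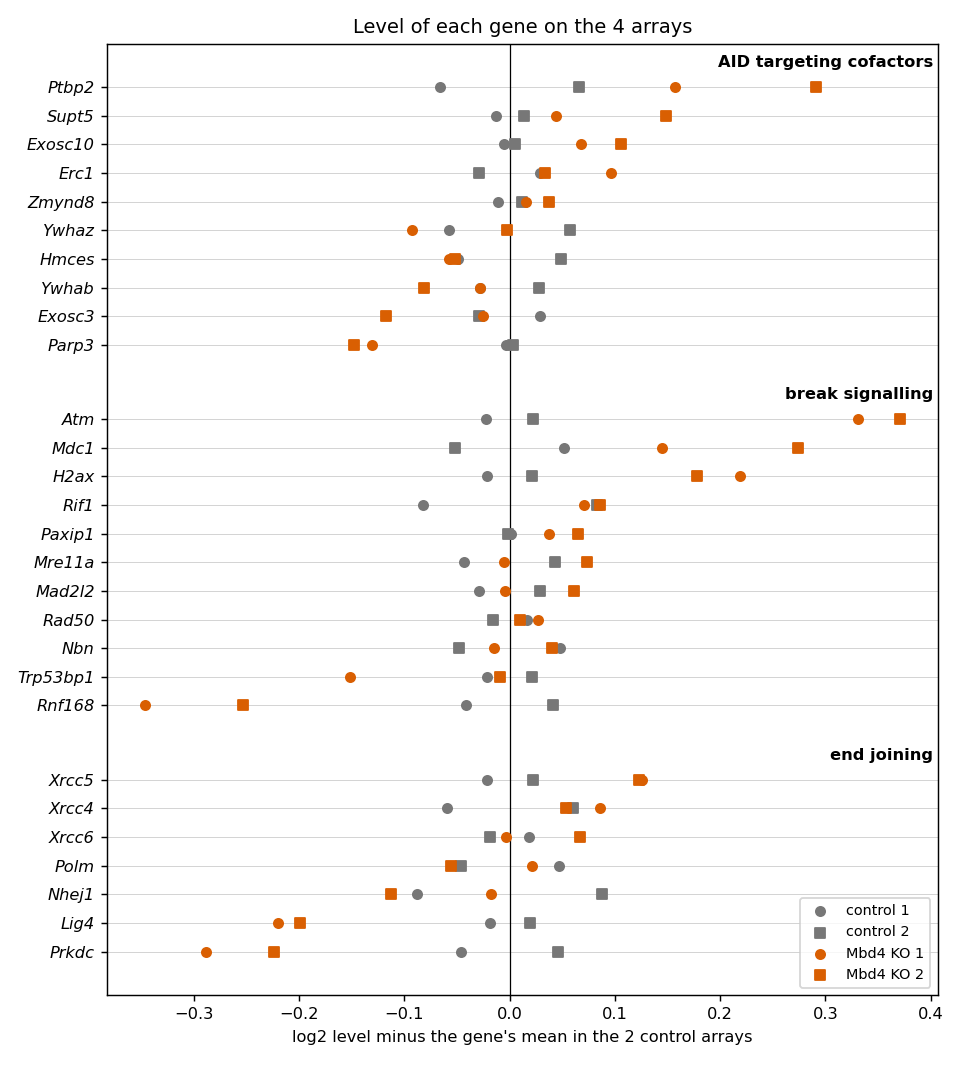
Log2 level of each of the 28 genes on each array, minus that gene's mean over the control arrays, by role group (grey, 2 control arrays; orange, 2 Mbd4 KO arrays; circles and squares, arrays numbered 1 and 2). The orange points of Atm, Mdc1, H2ax, Ptbp2 and Xrcc5 lie to the right of both grey points. Those of Rnf168, Prkdc, Lig4 and Parp3 lie to the left. The other genes have the colours mixed or close together.

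Among the AID cofactors, 10 of 12 were measured, with a median difference of -0.01 (log2), 5 above 0 and 5 below. Supt5, a subunit of the elongation factor DSIF that brings AID to paused RNA polymerase II, read 10.75 and 10.78 on the control arrays and 10.81 and 10.91 on the Mbd4 KO arrays. Its difference was 0.10 (95% interval -0.08 to 0.27; limma adjusted p = 0.62), small against the interval although the groups did not overlap. The RNA exosome lets AID reach both DNA strands by removing nascent RNA. Its catalytic subunit gene Exosc10 read 11.68 and 11.69 against 11.75 and 11.79, a difference of 0.09 (-0.07 to 0.25). The core subunit gene Exosc3 read 9.58 and 9.52 against 9.52 and 9.43 in its brighter cluster, with overlapping groups and a difference of -0.07 (-0.25 to 0.10). Its dimmer cluster, built on a different transcript record, differed by 0.11 (-0.05 to 0.28), so the 2 clusters had opposite signs and neither interval excluded 0.

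Ptbp2, an RNA-binding protein gene whose product helps AID bind switch regions, had the largest difference in this group. It read 10.41 and 10.54 on the control arrays and 10.63 and 10.76 on the Mbd4 KO arrays. The higher control array lay 0.09 under the lower Mbd4 KO array, and the arrays within each group were themselves 0.13 apart. The difference was 0.22 ± 0.0847 (log2, SE; 95% interval 0.02 to 0.43), with an unadjusted p of 0.0385 and an adjusted p of 0.328 by limma.

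The adaptor proteins of the 14-3-3 family bind AID and the repeats of switch regions. Ywhab, for the beta form, read 11.94 and 12.00 against 11.94 and 11.89, a difference of -0.05 (-0.22 to 0.11). Ywhaz, for the zeta form, had 2 clusters with differences of -0.05 and 0.03, and overlapping groups in both. The intervals of both genes included 0.

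Parp3, an ADP-ribosyltransferase gene acting at DNA breaks, read 8.86 and 8.87 on the control arrays and 8.73 and 8.72 on the Mbd4 KO arrays. Both pairs were tight and did not overlap, and the difference of -0.14 (95% interval -0.30 to 0.02; limma adjusted p = 0.425) was the lowest of the group. Zmynd8, a chromatin reader that acts on the heavy chain enhancers, varied by only 0.05 over all 4 arrays (10.33 and 10.36 against 10.36 and 10.38). Hmces, whose product shields abasic sites, was dim, with 24.5% of clusters dimmer, and read 5.77 and 5.87 against 5.76 and 5.77. Erc1, a scaffold protein gene that links ATM to NF-kappaB, had 3 clusters, all under the median level, that differed by 0.07, -0.05 and 0.25. The dimmest lay at 4.62 and 4.97 on the control arrays and 4.99 and 5.10 on the Mbd4 KO arrays, where 9.57% of clusters are dimmer, and its interval (-0.05 to 0.55) was the widest of the 33.

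Break signalling held both the highest and the lowest difference of the 28 genes. The 11 measured members had a median difference of 0.03, 9 above 0 and 2 below. Atm, the kinase that starts the response to double-strand breaks, read 9.24 and 9.29 on the control arrays and 9.59 and 9.63 on the Mbd4 KO arrays. Arrays of a group were 0.04 apart, and the groups were 0.31 apart at their nearest. The difference was 0.35 ± 0.0671 (log2, SE; 95% interval 0.19 to 0.52; 1.28-fold), with a limma adjusted p of 0.0869. Atm passed in alternative fits, with a prior variance that follows intensity (adjusted p = 0.00638, where 5.14% of clusters were called) and without the dimmest 30% of clusters (0.0337, 4.2% called).

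H2ax and Mdc1 had differences above 0 that were smaller than that of Atm and did not pass. H2ax, the histone variant that ATM phosphorylates around breaks, read 10.31 and 10.35 on the control arrays and 10.55 and 10.51 on the Mbd4 KO arrays. Its difference was 0.20 ± 0.0671 (95% interval 0.03 to 0.36; adjusted p = 0.28 by limma). Mdc1, the adaptor that binds phosphorylated H2ax, read 9.33 and 9.23 against 9.42 and 9.55, a difference of 0.21 ± 0.0806 (0.01 to 0.41; adjusted p = 0.335). For both genes the groups did not overlap and the interval excluded 0. Apart from Atm and Rnf168, the other measured genes of break signalling, Trp53bp1 (-0.08) and Nbn (0.01) among them, had intervals that included 0. The spread within a group was wider for Mdc1, whose Mbd4 KO arrays differed by 0.13.

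The genes of the complex that senses breaks had differences near 0. Mre11a, its nuclease, read 9.62 and 9.70 against 9.66 and 9.74, with a difference of 0.03. Rad50, the ATPase of the complex, read 9.93 and 9.90 against 9.94 and 9.92, a difference of 0.02. Nbn, which recruits ATM, read 8.90 and 8.80 against 8.84 and 8.89 in its brighter cluster, a difference of 0.01, and its other cluster differed by -0.06. The groups overlapped in all 4 clusters of these genes, and their intervals lay between -0.28 and 0.21.

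Rnf168, the ubiquitin ligase gene whose product marks chromatin for 53BP1, was the lowest of the 28. It read 10.31 and 10.39 on the control arrays and 10.00 and 10.09 on the Mbd4 KO arrays, with no overlap. The difference was -0.30 ± 0.0742 (95% interval -0.48 to -0.12; 1.23-fold lower; adjusted p = 0.157 by limma). With a prior that follows intensity it passed (adjusted p = 0.0121). Rnf168 lies on chromosome 16, whose genes as a whole had lower values, as given further on.

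The genes that protect broken ends from resection differed little. Trp53bp1, which encodes 53BP1, read 9.35 and 9.39 on the control arrays and 9.22 and 9.36 on the Mbd4 KO arrays, so that the groups overlapped (difference -0.08, 95% interval -0.27 to 0.11). Rif1, its main effector, read 10.14 and 10.30 against 10.29 and 10.31, where control array 1 alone was low (0.08, -0.12 to 0.28). Without that array the difference was -0.00. Mad2l2, a subunit of shieldin, read 9.42 and 9.47 against 9.44 and 9.51 (0.03, -0.14 to 0.20). Paxip1, an adaptor that binds 53BP1, read 10.15 and 10.15 against 10.18 and 10.21 (0.05, -0.11 to 0.21). None of these 4 genes had an adjusted p under 0.711 by limma.

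The promoters of Atm and Rnf168, the genes with the highest and the lowest difference, are shown because Mbd4 binds CpG sites when they are methylated. DNA methylation was not measured here. Each run is 300 bases of RefSeq's GRCm38.p6, from 250 bases before the annotated start to 50 after it, printed 5′ to 3′ with every CG in capitals. The Atm window is chr9:53536622-53536921 on the minus strand and the Rnf168 window is chr16:32277211-32277510 on the plus strand.
Atm: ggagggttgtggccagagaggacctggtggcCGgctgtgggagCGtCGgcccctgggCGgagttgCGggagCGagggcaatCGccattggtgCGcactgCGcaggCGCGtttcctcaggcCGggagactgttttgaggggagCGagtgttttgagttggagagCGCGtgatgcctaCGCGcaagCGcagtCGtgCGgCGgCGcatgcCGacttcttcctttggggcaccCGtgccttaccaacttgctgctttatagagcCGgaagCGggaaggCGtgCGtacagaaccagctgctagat
Rnf168: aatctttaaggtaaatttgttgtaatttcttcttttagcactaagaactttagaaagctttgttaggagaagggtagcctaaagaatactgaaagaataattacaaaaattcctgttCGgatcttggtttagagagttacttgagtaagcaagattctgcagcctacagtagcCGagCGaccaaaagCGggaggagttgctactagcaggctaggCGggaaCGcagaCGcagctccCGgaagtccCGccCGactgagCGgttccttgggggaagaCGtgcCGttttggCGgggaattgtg
The Atm window holds 28 CG, a count reached by 14.2% of the 32851 promoter windows of this length, and that of Rnf168 holds 14, a count reached by 36.3%. CG reads the same on both strands, so 1 search covers both. Over the 28 windows that the table lists for 21 of the 28 genes, the median was 21 CG, against 7 over all windows, with Erc1 highest (46) and 1 window of Zmynd8 lowest (5). H2ax and Prkdc had no entry in the table used. Of the members' windows, 26 of 28 had at least the median count of all. The windows of all genes were not matched to the members by level. A link between CG count and the differences was not tested.

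**Figure D2:**
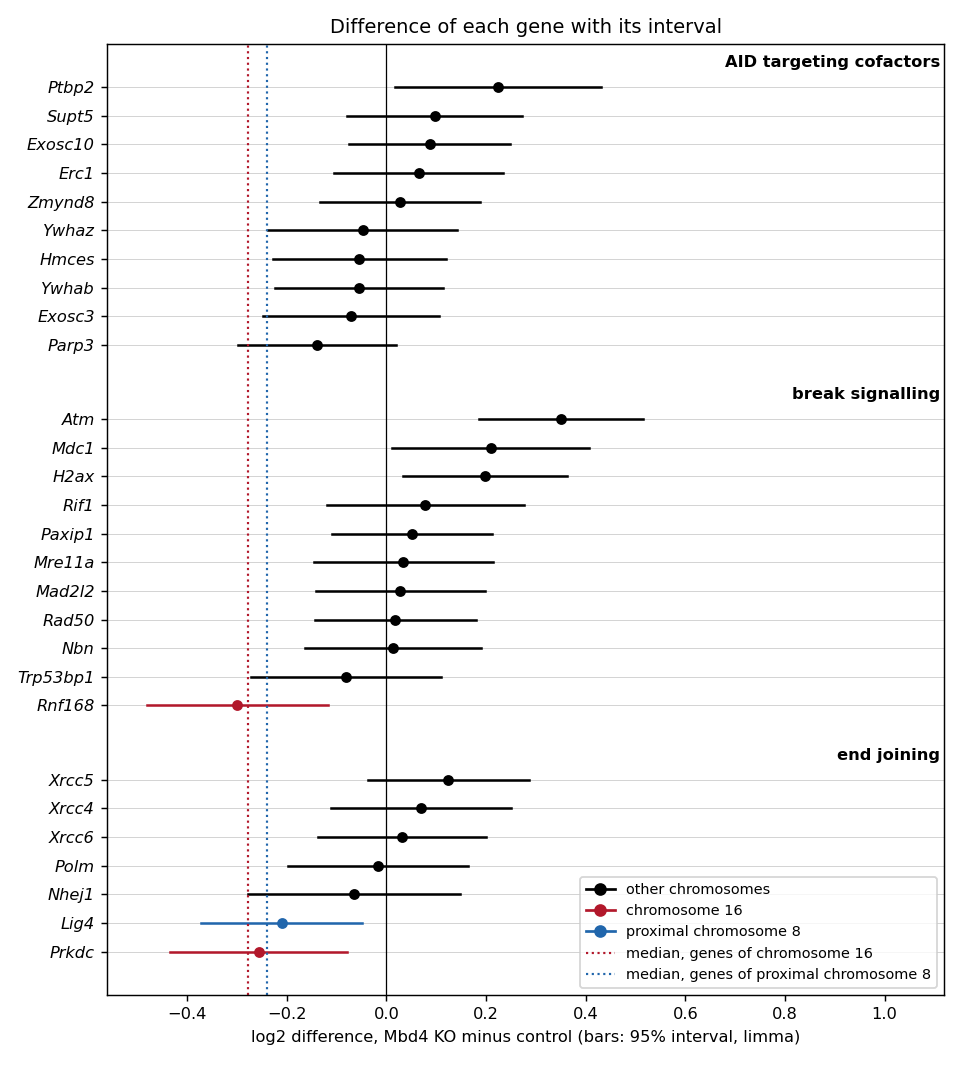
Difference of each of the 28 genes, Mbd4 KO minus control (log2), with its 95% interval from limma, by role group. Red marks genes of chromosome 16 and blue the gene of proximal chromosome 8, and the dotted lines are the medians of all genes at or above the median level in those regions (-0.28 and -0.24). The intervals of Rnf168, Prkdc and Lig4 lie below 0 and include their region's median.

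In end joining 7 of 8 genes were measured, with a median difference of -0.02, 3 above 0 and 4 below. Xrcc5 and Xrcc6 encode Ku80 and Ku70, which together cap a broken end. Xrcc5 read 10.18 and 10.22 on the control arrays and 10.32 on both Mbd4 KO arrays, a difference of 0.12 (95% interval -0.04 to 0.29), with no overlap. Its partner Xrcc6 read 8.87 and 8.83 against 8.85 and 8.92, a difference of 0.03 (-0.14 to 0.20), with overlapping groups. Neither subunit passed (adjusted p = 0.482 and 0.89 by limma).

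Prkdc, the catalytic subunit of the DNA-dependent kinase that Ku recruits, had the lowest value of this group. It read 9.82 and 9.91 on the control arrays and 9.57 and 9.64 on the Mbd4 KO arrays, which did not overlap. The difference was -0.26 ± 0.0726 (95% interval -0.43 to -0.08; 1.19-fold lower; limma adjusted p = 0.207). It passed with a prior that follows intensity (0.0375). Prkdc, like Rnf168, is a gene of chromosome 16.

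Lig4, the ligase that seals the joint, read 7.17 and 7.20 on the control arrays and 6.96 and 6.99 on the Mbd4 KO arrays. Its arrays were close within each group and apart between groups, with a difference of -0.21 ± 0.0661 (95% interval -0.37 to -0.05; limma adjusted p = 0.247). It lies in the proximal part of chromosome 8. Xrcc4, the partner that stabilises this ligase, read 8.29 and 8.41 against 8.44 and 8.41, a difference of 0.07 (-0.11 to 0.25), with overlap. Nhej1, which encodes the XLF factor that aligns the ends, read 7.50 and 7.67 against 7.57 and 7.47 (-0.07, -0.28 to 0.15). Polm, a polymerase gene for filling gaps at ends, was dim and read 6.54 and 6.45 against 6.52 and 6.44 (-0.02, -0.20 to 0.16). Of this ligase complex, Lig4 alone had an interval that excluded 0.

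The members with intervals wholly below 0 were Rnf168, Prkdc and Lig4, and these 3 are also the members that lie on chromosome 16 or proximal chromosome 8, the latter taken as the first 793 of the chromosome's 2381 annotated genes. On chromosome 16, 291 of the 316 genes at or above the median level had a difference below 0 (92.1%), with a median of -0.28 and quartiles of -0.36 and -0.18. Rnf168 lay 0.02 under that median and Prkdc 0.02 above it, with 132 and 178 of the 316 genes lower. In proximal chromosome 8 the median of 123 such genes was -0.24 (quartiles -0.36 and -0.06), and 68 of them were lower than Lig4, itself just under the median level. In the rest of the genome the median of 9414 such genes was 0.02. The 3 members thus lay within 0.03 of the median of their region's brighter genes. For Lig4 this depends on where the proximal part is cut. The far end of that part, from Tnks (0.15) to Cdkn2aip (0.02), held values on both sides of 0. A median without that stretch was not computed. Over all measured genes, dim ones included, the medians were nearer 0, at -0.11 for 649 genes of chromosome 16 (448 below 0) and -0.03 for 289 of proximal chromosome 8 (165 below 0), and the 3 members lay further below these. Without these 3, the median over the other 25 members was 0.03, with 17 above 0 and 8 below, and the members at an unadjusted p under 0.05 were then Atm, H2ax, Mdc1 and Ptbp2, 4 of 25. In either direction, the share at that p was 12.7% over genes outside these regions and 14.6% over those at or above the median level. The count of 4, taken without direction, was thus near the background. All 4 were higher, however. Of the 18981 genes outside these regions, 1477 were higher and 937 lower at that p. Of the 9414 at or above the median level, 797 were higher and 582 lower. Over all clusters tested, these regions included, 7.4% were higher at that p. The direction was looked at after the values were seen, and it was not tested. The 91 other genes described below went the other way, with 1 higher and 6 lower at that p. Of those 6, 3 lie in these regions. A change of Rnf168, Prkdc or Lig4 by itself and the shift of their region cannot be told apart in these arrays.

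Direct neighbours of these 3 genes were also low. The 10 genes nearest Rnf168 in RefSeq order, 5 a side and at or above the median level, had a median of -0.25, with 9 below 0. For Prkdc it was -0.28, with 10 of 10 below 0, among them the replication helicase gene Mcm4 (-0.33). For Lig4 it was -0.27, with 9 below 0 and 2 called. Around Atm the median was 0.06, with 6 above 0 and 4 below, and 1 of these neighbours, Zc3h12c, was higher than Atm itself (0.42 against 0.35). Around H2ax it was 0.04. Prkaca has no cluster of its own symbol, so neither its value nor its neighbours are given.

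**Figure D3:**
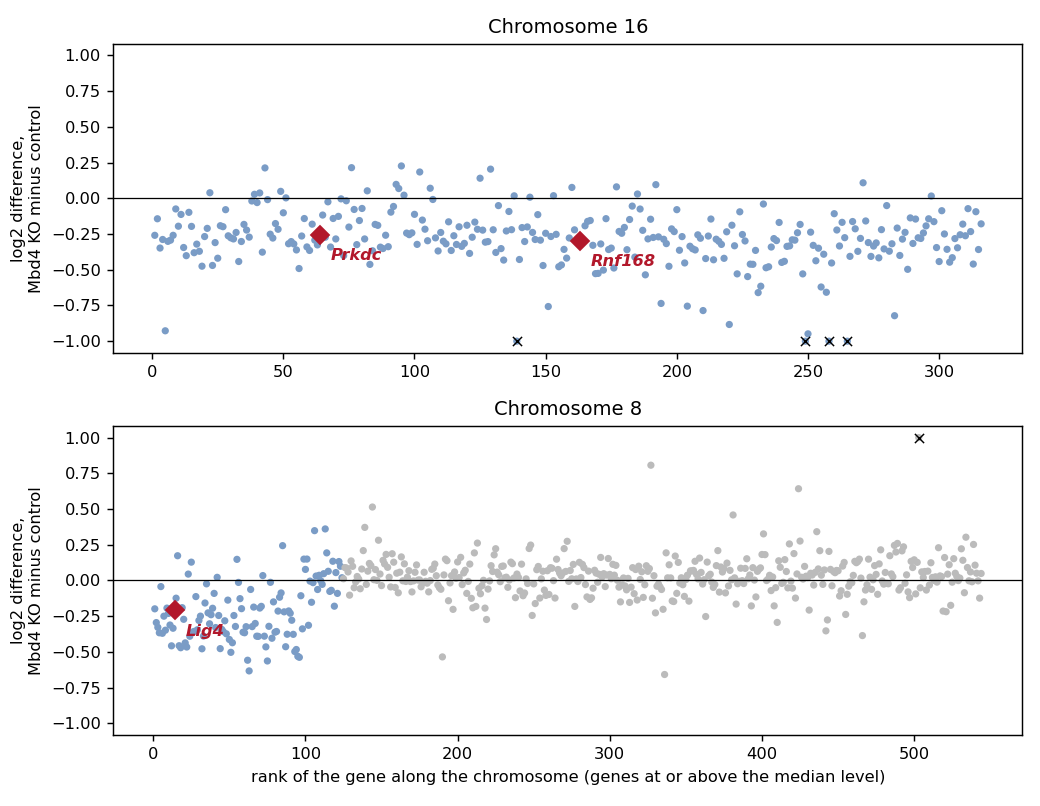
Difference of each gene at or above the median level, and of Lig4 just under it, Mbd4 KO minus control (log2), in gene order along chromosomes 16 and 8. Blue points are genes of chromosome 16 and of proximal chromosome 8, grey points the rest of chromosome 8, red diamonds Prkdc, Rnf168 and Lig4, and crosses at the edge stand for values beyond 1 in size. The diamonds lie among the blue points, most of which are below 0. The grey points lie around 0, as do the last blue points of chromosome 8.

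Beyond the 28, 100 other genes of the same processes were listed by their known roles, again with earlier results known, and 91 were measured. None passed (limma, adjusted p over all clusters), and 7 had an unadjusted p under 0.05 (7.69%, against 13.8% of all clusters tested), 1 higher and 6 lower. Of the 6, 3 lie on chromosome 16 or proximal chromosome 8. The median difference of the 91 genes was 0.01, with 50 above 0 and 41 below. By list, the medians were -0.00 for 26 genes of AID handling and switch transcription, -0.03 for 15 of the RNA exosome and the 14-3-3 family, 0.02 for 24 of end protection and signalling, -0.00 for 16 other end joining genes and 0.04 for 10 of cohesin and chromatin looping. Ung, the glycosylase that removes the uracil AID makes, read 8.84 and 8.91 on the control arrays and 8.98 and 8.96 on the Mbd4 KO arrays, a difference of 0.10 (95% interval -0.07 to 0.26).

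Ercc6l2, a helicase-like gene that supports end joining during switching, had a larger difference than any of the 28. It read 10.12 and 10.33 on the control arrays and 9.60 and 9.80 on the Mbd4 KO arrays, and the groups did not overlap although the arrays of a group were 0.21 and 0.19 apart. The difference was -0.53 ± 0.104 (95% interval -0.78 to -0.27; limma adjusted p = 0.0949), on chromosome 13. Its dimmer cluster, too, did not overlap and differed by -0.49 (-0.68 to -0.30; adjusted p = 0.0513 by limma). Wrn, the Werner helicase gene on proximal chromosome 8, differed by -0.38 (-0.54 to -0.21; adjusted p = 0.0739), and Nudt16l1, whose product binds 53BP1 and holds it off chromatin, by -0.27 on chromosome 16 (adjusted p = 0.167). Both Ercc6l2 (adjusted p = 0.0402) and Wrn (0.0274) passed without the dimmest 30% of clusters. With a prior that follows intensity Ercc6l2 (0.00277), Wrn (0.0127) and Nudt16l1 (0.034) passed. The 4 listed genes of chromosome 16 and proximal chromosome 8 were all below 0. On the higher side the largest were Poll, an end joining polymerase gene (0.18, 0.01 to 0.35), Atr, a kinase gene related to Atm (0.17, -0.05 to 0.39), and the exosome subunit gene Exosc7 (0.17, -0.00 to 0.34), none of which passed. The difference of Atr fell to 0.07 without control array 1.

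**Figure D4:**
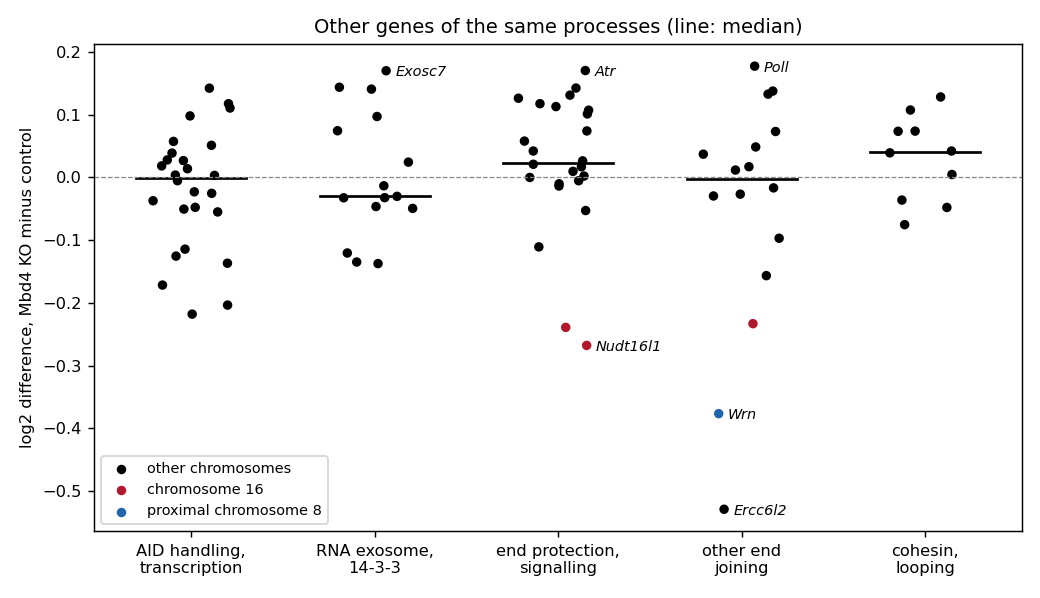
Difference, Mbd4 KO minus control (log2), of the 91 other genes in 5 lists, 1 point a gene and a line at each list's median. Colours mark the region as in the plot of differences. All medians lie within 0.05 of 0, and the lowest points are Ercc6l2, Wrn and genes of chromosome 16.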

How the data were processed

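RNA of 2 control and 2 Mbd4 KO samples, grouped by title, was measured on Affymetrix whole-transcript arrays. The deposited values are log2 expression, 1 per transcript cluster and array, made by the authors with RMA (background correction, quantile normalization, probe summary), per the submitters' processing notes. The RMA version and the array's genome build are unknown here. Raw intensities were not used, so a cluster's signal over background is unknown, and the number of arrays limits the precision.

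Clusters with exactly 1 symbol in the platform's gene table, 21789 of 35556, were tested, since 1621 had several symbols and 12146 none. The test was limma's moderated one (version 3.58.1, R 4.3.3; lmFit, then eBayes with no trend and no robust prior). P-values are two-sided and were adjusted by Benjamini-Hochberg over these clusters, with a threshold of 0.05. There was no filter on low values. SE values and 95% intervals are limma's moderated ones, with 2 residual and 4.00 prior degrees of freedom. The procedure was tested on simulated data with known changes in either direction. It called 0% of 67 clusters changed by 0.3 (log2), 19.4% of 67 changed by 0.5 and 93.9% of 66 changed by 1. Of the unchanged clusters, 2 were called. Changes of 0.3 were thus too small to be called in the simulation. It changed 200 clusters and drew variances without regard to intensity, so it does not give the power in the real data. With a prior that follows intensity, it too called 0% at 0.3. In the real data that fit called Prkdc, at -0.26. Chromosomes and gene order came from RefSeq's GRCm38.p6.

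The members, the lists and the alternatives were chosen with earlier results of these data known. The genes named are the 28 measured members, Mbd4 and, of the other genes, those called (none) and the 3 largest differences in each direction. Ung, Mcm4, Zc3h12c, Npat, Slc37a4, Tnks, Cdkn2aip, Usp7, Prkar1a and the markers Cd5, Csf1r and Adgre1 were named outside this rule. The comparison with neighbouring genes was added after values were seen. Of the 102 names listed as other genes, 1 proved to belong to another gene and 1 was a repeat. Where a gene has several clusters, that with the highest mean stands for it.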

Additional observations from a re-analysis of the deposited data

How the results depend on the processing

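Over 12 alternatives to the fit, no member cluster was called except in the 2 given next. A prior that follows intensity called 3 of the 33 (Atm, Rnf168 and Prkdc) and 5 of the 91 other genes (Ercc6l2, Wrn, Nudt16l1, Usp7 and Prkar1a), beside 5.14% of all clusters. Leaving out the dimmest 30% of clusters called 1 (Atm) and 2 other listed genes (Ercc6l2 and Wrn), beside 4.2%. Of the genes named, Rnf168, Prkdc, Nudt16l1 and Usp7 lie on chromosome 16 and Wrn on proximal chromosome 8. Over the table, against 94 higher and 208 lower clusters called, the first gave 398 and 723 and the second 224 and 416. With all 35556 clusters tested the counts were 5 and 17, and without chromosome 16 and proximal chromosome 8 122 were lower. With the replicate number of the titles as a block they were 45 and 114, with no member called. Deviations of same-numbered arrays correlated at 0.0832 over the tested clusters. This value cannot decide whether same-numbered arrays shared a culture or a batch, which the labels do not give. With 1 array left out, where the lone array is assumed to vary like the others, 17 to 22 were higher and 46 to 54 lower, and no member was called. The differences of Atm (0.33 to 0.37), Rnf168 (-0.35 to -0.25), Prkdc (-0.30 to -0.21) and Lig4 (-0.23 to -0.19) then kept their sign. Differences near 0 changed sign when 1 array was left out: Ywhaz (-0.105 to 0.0095), Rif1 (-0.0042 to 0.16), Mad2l2 (-0.0048 to 0.0612), Nbn (-0.0354 to 0.0607), Mre11a (-0.0089 to 0.0771), Nhej1 (-0.153 to 0.0222), Xrcc6 (-0.0034 to 0.0665) and Polm (-0.0637 to 0.0291). The medians of the 28 genes and of the 3 role groups moved by less than the spread between arrays in every alternative. Robust prior, quantile and cyclic loess normalization changed no call of a member. The cause of these differences between settings was not tested.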

Other observations

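Among the 10 genes nearest Atm on chromosome 9, of which those named here were chosen after their values were seen, Npat, a histone transcription coactivator gene, differed by -0.07 (limma adjusted p = 0.699) and Zc3h12c, a CCCH zinc-finger gene, by 0.42 (adjusted p = 0.0519). Among the 10 genes nearest H2ax, Slc37a4, the glucose-6-phosphate transporter gene, differed by 0.41 (limma adjusted p = 0.0843). It too was chosen after its value was seen. None of these passed.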
